A study of Homo sapiens with 4 samples.

Results

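The 37 genes described here encode coiled-coil proteins of the centrosome and the cilium, and were taken by symbol as the CEP genes that code for centrosomal proteins together with PCNT, CNTRL, NIN, PCM1, CENPJ, AKAP9, CDK5RAP2 and OFD1. All 37 were found by Ensembl identifier among the 63677 genes counted, and 36 had enough reads to be tested. The RNA came from HCT116, an established human colorectal carcinoma line, transfected for 48 h with either a control antisense oligonucleotide (ASO) or the anti-GAA ASO, which pairs with RNA that holds tandem GAA repeats, and 2 libraries were sequenced per ASO. The study designed the anti-GAA ASO to deplete RNAs with GAA repeats, and the question for these genes is how their RNA levels differed between the ASOs and how the differences relate to transcript length and to the repeat. The study's methods describe duplicate experiments, and the labels do not say whether the replicates are separate cultures. The p-values measure the spread between these libraries.

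The centrosome is built from a pair of centrioles, barrels of microtubule triplets, embedded in pericentriolar material that nucleates microtubules through gamma-tubulin rings. A new centriole forms beside each existing centriole once per cell cycle. The older centriole carries distal appendages, which dock it to the membrane when a cilium forms, and subdistal appendages, which anchor microtubules, while centriolar satellites move proteins to and from the centrosome. Many of these proteins are long alpha-helical coiled coils rich in glutamate and lysine. GAA is a codon for glutamate and AAG and AGA, the other frames of the same repeat, are codons for lysine and arginine, so that a run of GAA inside a coding sequence reads as glutamate, lysine or arginine.

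The oligonucleotide and the stretches of RNA with the longest perfect GAA run of selected members are shown first, because the comparison rests on how far the members carry the sequence that the ASO pairs with. The anti-GAA ASO has 21 nucleotides, 6 with a methoxyethyl-modified sugar at each end and 9 of DNA in the middle, where pairing with RNA allows cleavage by RNase H. Its DNA part is in capitals.
anti-GAA ASO: ttcttcTTCTTCTTCttcttc
For the members, 27 nucleotides of RNA sense are printed 5′ to 3′, written with T, from GENCODE 44 transcripts on GRCh38, with the longest GAA run in capitals. CEP152, CEP112 and CEP83 were the members with the smallest p, and AKAP9 and CEP164 had the longest runs among MANE Select transcripts, the reference transcript of each gene, with 11 nt. CEP70 and CEP85 carried runs as long as those of CEP152 and CEP83, and CEP290 had the longest run of any member.
CEP152: cattgtacAAGAAGAAGAcccaaatga
CEP112: gtgggaagtGAAGAAGAAaaatgggag
CEP83: aagctgccaAAGAAGAAGgttatcaaa
AKAP9: gaacaattAGAAGAAGAAGtagctaag
CEP164: gggccattAAGAAGAAGAAaaaaaaaa
CEP70: agtcagtcAGAAGAAGAAaacgactac
CEP85: aagtggctcAAGAAGAAGgaacaagcc
CEP290, MANE Select: agcagtcttGAAGAAGAAattgtgcaa
CEP290, retained intron: aaaAAGAAGAAGAAGAAGAAGAAaaga
The runs lie in coding exons at chr15:48772674-48772683 (CEP152, exon 13 of 27, minus strand), chr17:66183276-66183284 (CEP112, exon 2 of 27, minus strand), chr12:94368091-94368099 (CEP83, exon 10 of 17, minus strand), chr7:92031586-92031596 (AKAP9, exon 16 of 50, plus strand), chr11:117351923-117351933 (CEP164, exon 5 of 33, plus strand), chr3:138529426-138529435 (CEP70, exon 9 of 18, minus strand), chr1:26274986-26274994 (CEP85, exon 12 of 14, plus strand) and chr12:88087798-88087806 (CEP290, exon 32 of 54, minus strand). In CEP164 the run is in frame as lysine codons, and in the other 7 genes as glutamate codons. The run of 20 nt in CEP290, at chr12:88105721-88105740, is part of a transcript annotated as a retained intron and lies outside the exons of the MANE Select transcript. The best match to the 21-nt target of the ASO anywhere in that transcript was 20 nt, against 16 nt anywhere in the MANE Select transcript.

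Total counts were 10538284 and 17894953 in anti-GAA ASO replicates 1 and 2, and 15347298 and 15924742 in control ASO replicates 1 and 2. Of 8 markers of colorectal epithelium, EPCAM, CDH1, KRT8, KRT18, KRT19 and CDX2 exceeded 1 CPM, the count scaled to library size, in every library, whereas VIL1 and LGALS4 had between 0 and 29 counts. Summed CPM of the 8 markers was 2575 and 2907 in the anti-GAA libraries and 2669 and 2912 in the control libraries. KRT19, the most abundant of them, was 1327 and 1639 CPM against 1114 and 1366 CPM. EPCAM (641 and 628 against 740 and 729), KRT18 (224 and 308 against 389 and 388), KRT8 (325 and 261 against 358 and 350) and CDH1 (34.7 and 48.0 against 48.4 and 60.7) were lower in both anti-GAA libraries than in both control libraries. CDX2 was higher in both anti-GAA libraries than in both control libraries, with 23.0 and 21.7 CPM against 19.6 and 17.3 CPM. The 5 fibroblast markers summed to 10.3 and 13.2 CPM in the anti-GAA libraries and 12.1 and 14.8 CPM in the control libraries, nearly all of it COL1A1, with COL1A2 and DCN at 0 in every library. Leukocyte markers summed to at most 0.848 CPM and endothelial markers to at most 1.30 CPM in any library. Most epithelial markers were thus present in all 4 libraries, and those of the other cell types were low or absent, apart from COL1A1. The part of these marker differences in the member differences below was not tested.

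RNA of the centrosome and cilium coiled-coil genes was lower with the anti-GAA ASO for most members, by a modest amount, with no member passing the test after adjustment over all genes. The log2 fold change of anti-GAA over control ASO was below 0 for 28 of 36 members (77.8%), against 48.4% of the 15116 tested genes, and its median was −0.30 against 0.013 for all tested genes. Values ranged from −1.04 for CEP112 to 0.28 for CEP68. In bulk RNA, fewer cells of a type and less RNA per cell cannot be told apart.

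By edgeR's quasi-likelihood test with Benjamini-Hochberg adjustment over all tested genes, 0 members and 0% of all tested genes passed an adjusted p of 0.05. The smallest adjusted p was 0.996 among members and 0.671 among all genes. At an unadjusted p under 0.05, 3 members (CEP152, CEP112 and CEP83) were lower, 8.33% against 3.46% of all tested genes, and 0 were higher, against 1.02%. Among all genes, 523 were lower and 154 higher by that rule. DESeq2 gave 2 members lower and 0 higher by the same rule, beside 317 lower and 100 higher among all genes. In edgeR, scaling by total counts gave 692 and 72 instead, and offsets for transcript length and GC content gave 420 and 207. Both anti-GAA libraries were below both control libraries for 18 members (50.0%), against 16.9% of all tested genes, and above both for 5 (13.9%), against 15.5%. The remaining 13 overlapped. With scaling by total counts, 0 members lay above both control libraries, against 9.39% of all genes. With 2 libraries against 2, no gene alone can reach an exact two-sided permutation p below 0.333. A term for the replicate number, whose meaning the labels do not give, changed the edgeR counts. After adjustment 207 genes were lower and 51 higher, with 0 members among them. At an unadjusted p under 0.05, 12 members were lower and 0 higher, beside 1466 lower and 1037 higher among all genes.

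The difference varied between replicates. When libraries of the same number were set against each other, the median member difference in log2 CPM was −0.15 for replicate 1 and −0.41 for replicate 2, an SD of 0.18, whereas the medians over all tested genes were −0.0041 and 0.020. In replicate 1, 24 members were lower and in replicate 2, 27, with 21 lower in both and 6 higher in both. Leaving out each library in turn gave 25 or 26 of 36 members below 0, and member medians from −0.34 to −0.24. The members at an unadjusted p under 0.05 changed with the library left out, to AKAP9 and CEP295 without anti-GAA ASO replicate 1, CEP152 and CEP192 without anti-GAA ASO replicate 2, CEP112, CEP152, CNTRL and PCM1 without control ASO replicate 1, and none without control ASO replicate 2. CEP83 was not among them with DESeq2 or with offsets for length and GC content. Offsets for length and GC content moved the member median to −0.19, with 26 members below 0, against 42.4% of all genes, and left 11 members with both anti-GAA libraries below both control libraries, against 14.4% of all genes under these offsets.

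**Figure D1:**
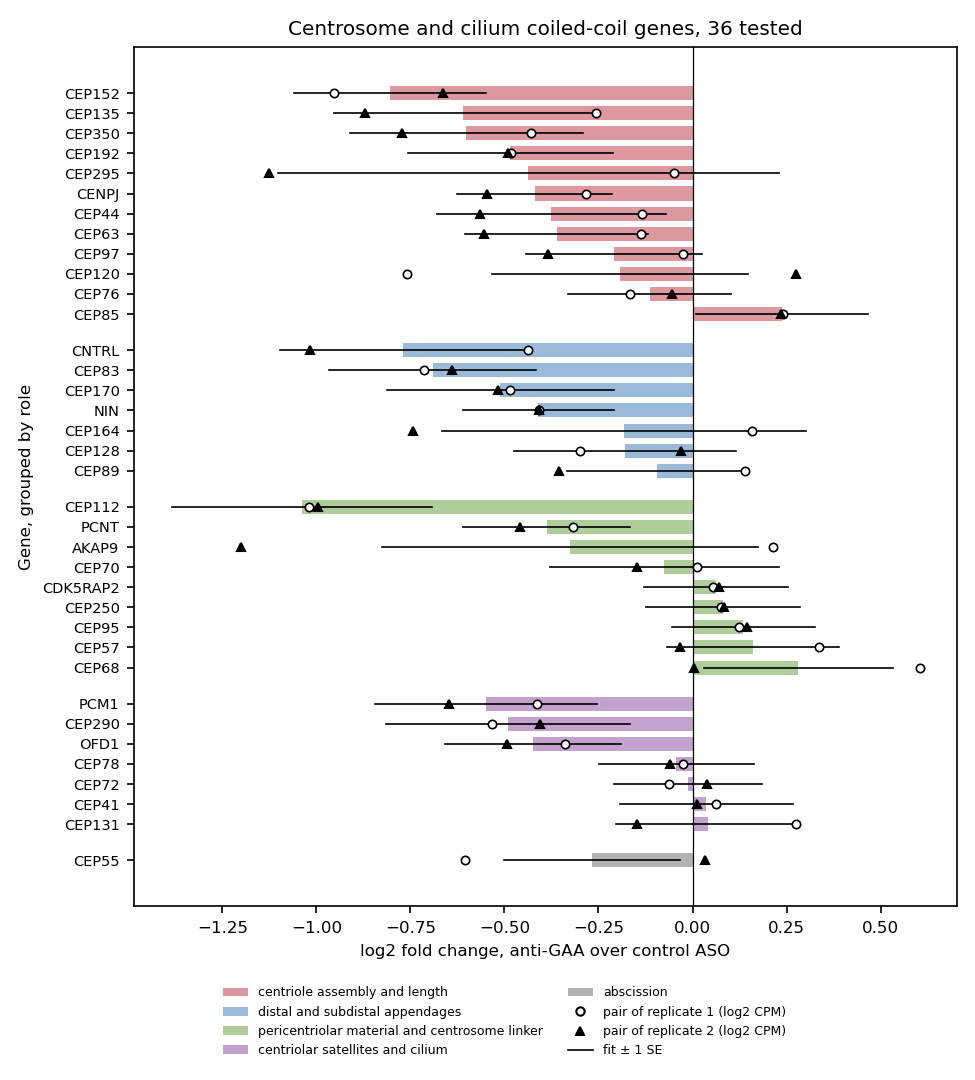
Log2 fold change of anti-GAA over control ASO for the 36 tested members, grouped by role; bars are the edgeR estimate with a line of 1 SE to each side, and circles and triangles are the log2 CPM differences of replicates 1 and 2. All 7 appendage genes and 11 of 12 centriole assembly genes lie below 0, while 5 of 9 genes of the pericentriolar material and linker lie above it.

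Among the 12 genes of centriole assembly and length, 11 were lower and the median log2 fold change was −0.40. In 9 of them (75.0% of the role, against 16.9% of all tested genes) both anti-GAA libraries lay below both control libraries, without offsets for length and GC content. CEP152, the scaffold that recruits the kinase PLK4 to start a new centriole, had 7.78 and 9.67 CPM in the anti-GAA libraries, against 15.2 and 15.4 CPM in the control libraries. The 2 groups did not overlap, and the level with the anti-GAA ASO was 57.3% of control (log2 fold change −0.80 ± 0.26 SE, edgeR unadjusted p = 0.0166, adjusted p = 0.996). CENPJ, a tubulin-binding protein needed for centriole elongation, had 25.0 and 23.3 CPM against 30.4 and 34.1 CPM (−0.42 ± 0.21 SE). CEP350, a centriole protein that binds microtubules, had 7.27 and 5.06 CPM against 9.85 and 8.73 CPM (−0.60 ± 0.31 SE). For both genes the groups were apart, by a smaller margin than for CEP152. CEP135, which links the cartwheel of the new centriole to its wall, CEP192, a scaffold of both duplication and pericentriolar material, CEP44, a protein of the luminal centriole wall, and CEP63, the partner of CEP152, had log2 fold changes of −0.61, −0.48, −0.38 and −0.36. CEP97, which caps the distal end of centrioles, and CEP76, which limits reduplication, had −0.21 and −0.11. These 6 genes did not overlap between the groups either.

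The other 3 genes of this role overlapped. CEP295, which is needed to turn a new centriole into a centrosome, had 3.84 and 0.955 CPM in the anti-GAA libraries, against 3.98 and 2.24 CPM in the control libraries, so that the replicates of each group lay further apart than the group means (−0.44 ± 0.67 SE). CEP120, the partner of CENPJ in elongation, was lower in replicate 1 and higher in replicate 2 (−0.19 ± 0.34 SE). CEP85, which binds STIL in duplication, was the only gene of the role with a fold change above 0, with 46.4 and 37.3 CPM against 39.3 and 31.7 CPM (0.24 ± 0.23 SE), higher in both replicates but overlapping between the groups.

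All 7 appendage genes were lower, against 48.4% of all tested genes, with a median of −0.41, and the groups did not overlap for 4 of them (57.1%, against 16.9%). CEP83, at the base of the distal appendages, had 6.26 and 5.90 CPM in the anti-GAA libraries, against 10.4 and 9.26 CPM in the control libraries, a level of 61.9% of control (−0.69 ± 0.28 SE, edgeR unadjusted p = 0.0411, adjusted p = 0.996). CNTRL, the subdistal appendage protein centriolin, had 4.34 and 4.10 CPM against 5.93 and 8.43 CPM (−0.77 ± 0.33 SE, edgeR unadjusted p = 0.0524). NIN, or ninein, which anchors microtubules at the subdistal appendages, had 22.1 and 22.5 CPM against 29.4 and 30.0 CPM (−0.41 ± 0.20 SE). The replicates of NIN were the closest of these genes, and the control libraries of CNTRL were the furthest apart. CEP170, another subdistal protein, had a log2 fold change of −0.51 and its groups did not overlap. The groups of CEP164, which recruits the kinase TTBK2 to the distal appendages, overlapped, with 9.40 and 3.54 CPM against 8.41 and 6.02 CPM (−0.18 ± 0.48 SE), as did those of the subdistal CEP128 (−0.18) and the distal CEP89 (−0.094).

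The 9 genes of the pericentriolar material and the centrosome linker did not share a direction, with 4 lower, 5 higher and a median of 0.063. Both anti-GAA libraries lay below both control libraries for 2 of them (22.2%, against 16.9% of all tested genes). They lay above both for 4 (44.4%, against 15.5%). CEP112 and CEP95, centrosomal proteins with no role assigned here, were placed with them. CEP112, the member with the lowest fold change, had 2.12 and 2.42 CPM in the anti-GAA libraries, against 4.43 and 4.95 CPM in the control libraries, a level of 48.7% of control (−1.04 ± 0.35 SE, edgeR unadjusted p = 0.0203, adjusted p = 0.996). These levels rest on 21 and 43 counts against 68 and 84. PCNT, or pericentrin, the scaffold of the pericentriolar material, had a log2 fold change of −0.39 without overlap between the groups. AKAP9, which anchors kinases at the centrosome and the Golgi, had 10.9 and 3.60 CPM against 9.39 and 8.43 CPM (−0.33 ± 0.50 SE), low only in anti-GAA ASO replicate 2, and the gamma-tubulin-binding CEP70 had −0.076.

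CEP95 had 66.3 and 67.6 CPM in the anti-GAA libraries, against 60.8 and 61.2 CPM in the control libraries (0.14 ± 0.19 SE). CDK5RAP2, which activates gamma-tubulin rings, had 62.5 and 63.9 CPM against 60.3 and 60.8 CPM (0.063 ± 0.19 SE). CEP250, the C-Nap1 protein at the root of the linker, had 23.0 and 23.8 CPM against 21.8 and 22.5 CPM (0.081 ± 0.21 SE). In these 3 genes both anti-GAA libraries were slightly higher than both control libraries, and with scaling by total counts the fold changes of CDK5RAP2 and CEP250 turned to −0.031 and −0.013. CEP68, a linker protein, had 24.2 and 22.9 CPM against 15.9 and 22.8 CPM (0.28 ± 0.25 SE), a difference carried by control ASO replicate 1. CEP57, which organises pericentriolar material, had 27.3 and 20.9 CPM against 21.6 and 21.4 CPM (0.16 ± 0.23 SE), a difference carried by anti-GAA ASO replicate 1, without which it was −0.032.

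**Figure D2:**
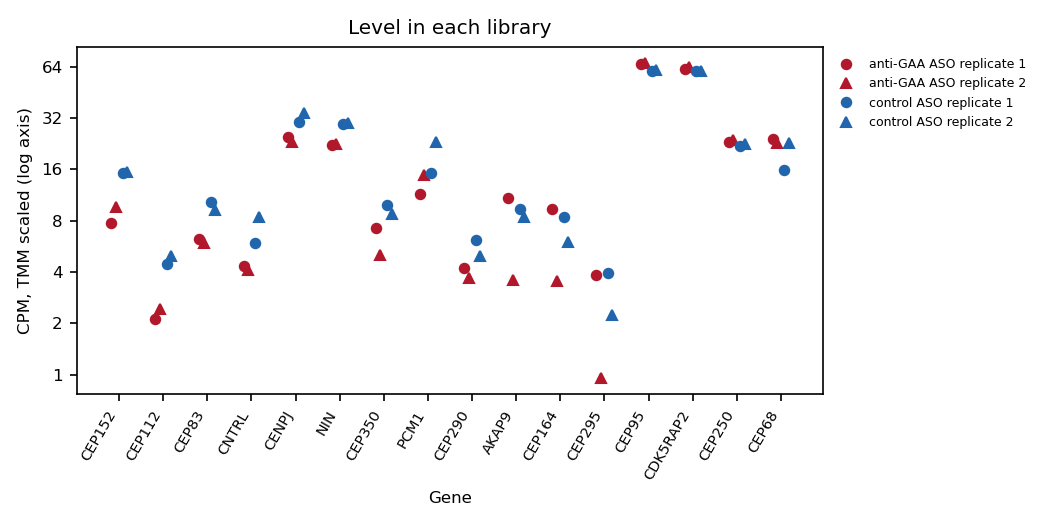
TMM-scaled CPM on a log axis for 16 members in each of the 4 libraries, anti-GAA ASO in red and control ASO in blue, circles for replicate 1 and triangles for replicate 2. CEP152, CEP112 and CEP83 are lower in both anti-GAA libraries than in both control libraries, whereas AKAP9, CEP164 and CEP295 are lowest in anti-GAA ASO replicate 2 alone.

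Of the 8 genes of the centriolar satellites and the cilium, 5 of the 7 tested were lower, and the median was −0.043. PCM1, the scaffold of the satellites, had 11.4 and 14.8 CPM in the anti-GAA libraries, against 15.3 and 23.3 CPM in the control libraries (−0.55 ± 0.30 SE). CEP290, a transition zone protein mutated in ciliopathies, had 4.24 and 3.71 CPM against 6.19 and 4.95 CPM (−0.49 ± 0.33 SE, edgeR unadjusted p = 0.175). OFD1, a satellite and distal centriole protein mutated in oral-facial-digital syndrome, had a log2 fold change of −0.42. The groups of these 3 genes did not overlap (42.9% of the 7 tested, against 16.9% of all tested genes). For 1 gene of the role, CEP41, both anti-GAA libraries lay above both control libraries (14.3%, against 15.5%). CEP78, a centriole protein mutated in cone-rod dystrophy with hearing loss, and CEP72, a satellite protein, had −0.043 and −0.012, with overlap.

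CEP131, a satellite protein, had 44.7 and 48.2 CPM against 36.9 and 53.4 CPM (0.040 ± 0.24 SE), and the spread between its control libraries exceeded the difference. CEP41, which acts in tubulin glutamylation in cilia, had 14.6 and 14.4 CPM against 14.0 and 14.3 CPM (0.037 ± 0.23 SE). Both turned negative with scaling by total counts, to −0.061 and −0.058. CEP162, an axoneme-binding protein of the transition zone, had 2 and 4 counts in the anti-GAA libraries and 9 and 5 counts in the control libraries, too few for the test. CEP55, which recruits ESCRT proteins to the midbody when daughter cells separate, was the only member outside these roles, with a log2 fold change of −0.27, lower in replicate 1 (−0.60) and not in replicate 2 (0.032).

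AKAP9, CEP164 and CEP295 shared a pattern across libraries and are set apart here after their values had been seen. Each lay within or above the range of the control libraries in anti-GAA ASO replicate 1 and at its lowest in anti-GAA ASO replicate 2, with log2 CPM differences between libraries of the same number of 0.21 and −1.20, 0.16 and −0.74, and −0.05 and −1.13. The counts behind the low values were 64 for AKAP9, 63 for CEP164 and 17 for CEP295, in the library with the most reads. The pattern was not particular to these genes. CEP89 (26.9 and 19.4 CPM against 24.4 and 24.9 CPM) and CEP57 showed it with smaller drops in replicate 2. Coiled-coil proteins away from the centrosome showed it too, such as ROCK1 (7.78 and 2.02 CPM against 6.39 and 5.66 CPM) and GOLGA4 (11.6 and 4.05 CPM against 11.5 and 5.78 CPM).

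Per length of merged exons, mean levels in RPKM (CPM divided by the length in kb) ranged from 0.190 for CEP290 to 14.3 for CEP55 among tested members. CEP131, CEP72, CEP95 and CEP85 followed with 11.5, 8.64, 8.23 and 7.51 RPKM, and CNTRL, CEP350 and CEP112 were among the lowest with 0.255, 0.259 and 0.265. The 3 members with the smallest p, CEP152, CEP112 and CEP83, had 1.47, 0.265 and 1.15 RPKM. The merged exons are those of all annotated transcripts, 25131 nt for CEP290 and 13139 nt for CEP112. The MANE Select transcripts of these 2 genes have 7824 and 3447 nt, so the order of the members depends on the length used. Reads of overlapping genes could enter some of these levels, since the strand setting of the counting is not given in the sources used here. Exons of 20 members share bases with another gene, in 9 cases with an expressed gene, at most 20.9% of the member's exons (CEP57 with MTMR2). For CEP95, 3.24% of the exon bases are shared with DDX5, whose level was 606 to 964 CPM. CEP170P1, a pseudogene copy of CEP170, had between 0 and 2 counts per library.

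Transcripts of these genes are long. The longest transcript had a median of 6085 nt among the 36 tested members, from 2366 nt for CEP72 to 15434 nt for CEP250, against 3407 nt for all tested genes, and a median GC content of 41.6% against 48.0%. Longer transcripts were somewhat lower with the anti-GAA ASO among all genes, where the median log2 fold change went from 0.062 below 2000 nt to −0.095 at 10000 nt and above. Members of 2000 to 4000 nt had a median of −0.012 (n = 9), those of 4000 to 6000 nt −0.38 (n = 9), those of 6000 to 8000 nt −0.31 (n = 4), those of 8000 to 10000 nt −0.46 (n = 6) and those of 10000 nt or more −0.36 (n = 8). All genes in the 4 upper classes had medians of −0.0048, −0.038, −0.079 and −0.095. From 4000 nt upward the members were thus lower than all genes of like length in each class, with no steady order among the classes.

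Across the 36 members the Spearman correlation between log2 fold change and transcript length was −0.26, with −0.12 in replicate 1 and −0.29 in replicate 2, and across all 14751 tested genes with a transcript it was −0.13. These are correlations across genes that share the same 4 libraries. Without anti-GAA ASO replicate 2 the value for members was −0.083. CEP250, the longest at 15434 nt, and CDK5RAP2, at 10694 nt, had fold changes near 0, whereas CEP83, at 3686 nt, and CEP112, at 4752 nt, were among the lowest. The longest transcript is not always the coding one. That of CDK5RAP2 is annotated as a retained intron and that of CEP112 has no defined coding sequence. Their MANE Select transcripts have 6232 and 3447 nt. With MANE Select length the correlation over members was −0.24, with −0.030 in replicate 1 and −0.32 in replicate 2. Over all genes with a MANE Select transcript it was −0.17.

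The longest perfect GAA run, in any frame, had a median of 9 nt among tested members, from 6 nt in CEP76 to 20 nt in CEP290, against 7 nt among all tested genes. Runs of at least 9 nt were present in 21 of 36 members (58.3%), against 20.1% of all genes with a transcript. Runs of at least 12 nt were as rare among members as elsewhere, with 1 of 36 (2.78%, CEP290) against 2.54%, and in MANE Select transcripts 0 of 36 members had one, against 2.96%. The best match to the 21-nt target reached 15 nt or more in 28 members (77.8%), against 38.8%. Among all genes the median log2 fold change was 0.030 for runs below 9 nt, −0.037 for 9 to 11 nt and −0.16 for 12 nt or more. Members had −0.19 (n = 15), −0.30 (n = 20) and −0.49 (n = 1, CEP290).

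In the shortest class, the 6 members with a run below 8 nt had a median of −0.038, with 3 of them lower, against 0.044 and 44.2% lower among all genes, whereas the 9 members with a run of 8 nt had −0.38 against −0.0050. These classes use the longest transcript, which can differ from the MANE Select transcript. CEP192 and CEP95 enter the shortest class with 7 nt, but hold 9 and 8 nt in MANE Select. CEP164, shown above with 11 nt in MANE Select, enters with 9 nt. The correlation of fold change with run length was −0.31 over members, with −0.082 in replicate 1 and −0.37 in replicate 2, and −0.13 over all genes. It was also −0.13 over members without anti-GAA ASO replicate 2, and −0.20 with offsets for length and GC content. With the longest run over any transcript it was −0.41 over members (−0.14 in replicate 1 and −0.49 in replicate 2). For the best match to the ASO target it was −0.37 (−0.016 and −0.54), and for the run in MANE Select transcripts −0.29 (−0.027 and −0.41). With the run of TTC, which the ASO does not pair with, the correlation was −0.23 over members and −0.078 over all genes. Runs of like length went with unlike differences, as between CEP152 and CEP70, both with 10 nt (−0.80 and −0.076), or between CEP83 and CEP85, both with 9 nt (−0.69 and 0.24).

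**Figure D3:**
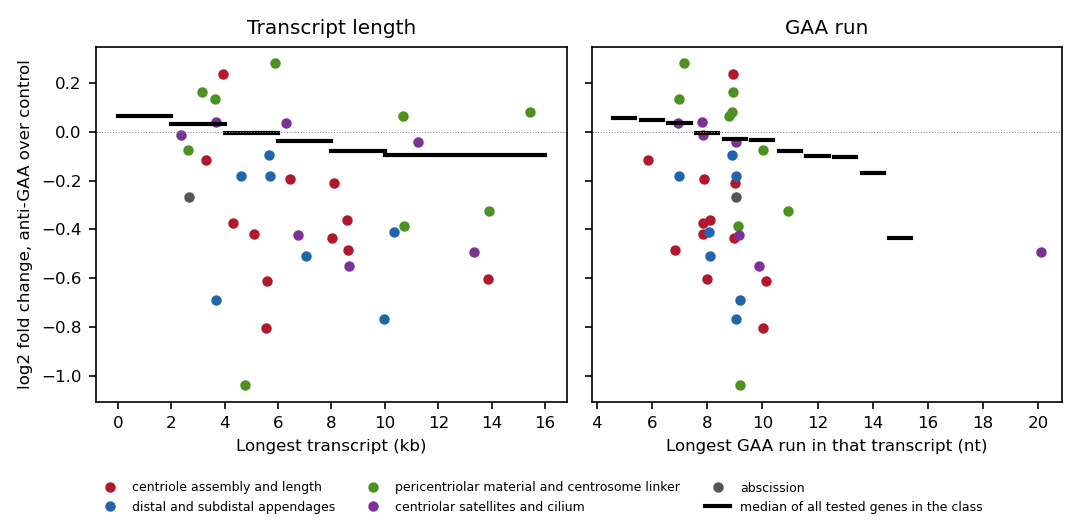
Log2 fold change of the 36 tested members (points, coloured by role) against the length of the longest transcript in kb and against its longest GAA run in nt, with a small sideways shift to part the points; black lines are medians of all tested genes in each class with at least 20 genes. Most members lie below the line of all genes at the same length or run, and CEP290 stands alone at 20 nt.

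In the MANE Select transcripts the longest run lay in the coding sequence of 33 of 36 members (91.7%), against 75.3% of all genes, and in the 3′ UTR of CEP68, CEP41 and CEP78. Among the 33 it was in frame as glutamate in 23 (69.7%) and as lysine in 10 (30.3%), with 0 as arginine, against 41.3%, 52.4% and 6.23% among all genes with a coding run. The share of GAA among all codons, a measure added after the data had been seen, had a median of 7.11% in members, from 1.02% in CEP131 to 12% in CEP83, against 2.69% in all genes.

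Members with the highest share of GAA codons were lower in the fit over both replicates. The 12 members with at least 8% GAA codons (CEP83, AKAP9, CEP290, CEP135, CEP112, CEP55, OFD1, CEP63, CEP70, CEP152, NIN and CNTRL) had fold changes below 0 in the fit over both replicates, with a median of −0.46, and in 9 of them both anti-GAA libraries lay below both control libraries. Of the 291 genes with such a share among all tested genes, 69.1% were below 0, with a median of −0.15, and both anti-GAA libraries lay below both control libraries for 87 (29.9%). Within replicates, AKAP9 (0.21) and CEP70 (0.013) were above 0 in replicate 1 and CEP55 (0.032) in replicate 2. Members with 6 to 8% had −0.19 (n = 11), those with 4 to 6% −0.16 (n = 8), those with 2 to 4% 0.037 (n = 3) and those below 2% 0.014 (n = 2).

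The correlation between the share and the fold change was −0.59 across the 36 members, with −0.50 in replicate 1 and −0.45 in replicate 2, and from −0.51 to −0.48 when each library was left out in turn. Across the 12113 tested genes with a MANE Select transcript it was −0.080, with −0.13 in replicate 1 and 0.0028 in replicate 2. The points share their 4 libraries and their base composition, as the share of GAA codons correlated with GC content at −0.59 across members and −0.72 across all genes. GC content itself correlated with the fold change at 0.40 across members and 0.056 across all genes. With offsets for length and GC content, the correlation with GAA codons was −0.57 across members. The parts of base composition and of the ASO in this relation were not tested.

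**Figure D4:**
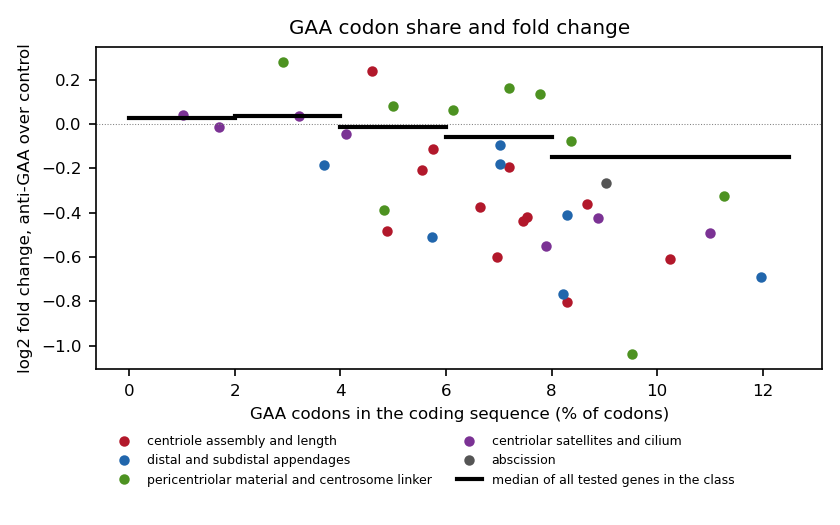
Log2 fold change of the 36 tested members against the share of GAA codons in the coding sequence, coloured by role; black lines are medians of all tested genes in classes of 2 percentage points, with the last class open from 8%. The 12 members from 8% upward lie below 0 in the fit over both replicates.

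Other genes of the same organelles were spread over both directions, and their difference from the members was not tested. Of 107 further centrosome and cilium genes, 104 were tested, 56 were lower (53.8%) and 48 higher, and the median log2 fold change was −0.040. At an unadjusted p under 0.05, 1 was lower and 1 was higher, 0.962% each way, which is below the 3.46% of all tested genes that were lower and near the 1.02% that were higher. In the list of centriole duplication factors such as PLK4 and STIL, 11 of 15 were lower (median −0.23), and in that of gamma-tubulin ring and augmin subunits 11 of 18 (−0.056). Of further appendage, linker and satellite genes 15 of 24 were lower (−0.10), of transition zone genes 8 of 18 (0.056), and of intraflagellar transport and BBSome genes 11 of 29 (0.12). The genes of this list had a median transcript of 4117 nt and 4.23% GAA codons.

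IFT74, an intraflagellar transport protein, had 9.09 and 9.50 CPM in the anti-GAA libraries, against 13.7 and 15.7 CPM in the control libraries (−0.66 ± 0.25 SE, edgeR unadjusted p = 0.0324). HAUS6, an augmin subunit, SCLT1, a distal appendage protein, and KIAA0753, a satellite protein, had −0.61, −0.54 and −0.47, also without overlap between the groups. IFT25, another intraflagellar transport protein, had 103 and 97.5 CPM against 65.8 and 74.4 CPM (0.52 ± 0.19 SE, edgeR unadjusted p = 0.0324). IFT43, a further intraflagellar transport protein, MZT2B, of the gamma-tubulin ring, and BBS1, of the BBSome, had 0.38, 0.35 and 1.03. BBS1 rested on low levels, with 2.42 and 1.01 CPM against 0.978 and 0.649 CPM. None of these passed adjustment over all genes.

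Coiled-coil proteins that do not reside at the centrosome, such as golgins, a set of 22 chosen for a like fold and long transcripts, were also lower, with 15 below 0 (68.2%) and a median of −0.25. The medians for replicates 1 and 2 were −0.0049 and −0.45, and without anti-GAA ASO replicate 2 the median was 0.0075. At an unadjusted p under 0.05, 4 were lower (18.2%, against 3.46% of all tested genes) and 0 were higher (against 1.02%). USO1, a tether of vesicles at the Golgi, which holds a run of 16 nt of GAA, had 19.0 and 17.0 CPM against 47.7 and 33.8 CPM (−1.18 ± 0.25 SE, edgeR adjusted p = 0.671). GOLGB1, or giantin, TRIP11, a golgin, and ROCK2, a kinase with a coiled coil, had −0.95, −0.79 and −0.66. GCC1, BICD2, PPFIA1 and GOLGA3 had 0.26, 0.20, 0.19 and 0.18. With a term for the replicate number, whose meaning the labels do not give, USO1 and GOLGB1 passed adjustment (edgeR adjusted p = 0.00547 and 0.0482). This list had a median transcript of 8074 nt and 7.07% GAA codons, close to the 7.11% of the members. Its longest GAA runs differed more, with a run of at least 12 nt in 4 of 22 genes (18.2%). Among the members 1 of 36 (2.78%) had such a run, and among all genes 2.54%. With offsets for length and GC content the median log2 fold change of the list was −0.091, against −0.19 for the members. Without these offsets, both anti-GAA libraries lay below both control libraries for 7 of its genes (31.8%, against 50.0% of the members and 16.9% of all tested genes). The difference between the lists was not tested.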

How the data were processed

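RNA of HCT116 cells was sequenced in 4 libraries, 2 for each ASO. Per the labels and methods, Trimmomatic 0.38 was used for trimming, STAR 2.6.1 for alignment to hg19 without the GL contigs, and featureCounts 1.6.3 for assigning reads to genes. The deposited table holds whole-number counts for each gene and library, which the authors had not normalized. The labels give a total RNA library kit and 48 h of transfection, where the methods of the study name a stranded mRNA kit and a shorter time.

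All genes entered a fit by edgeR 4.0.16 in R 4.3.3 (filterByExpr, TMM, quasi-likelihood F-test, no term other than the ASO), with Benjamini-Hochberg adjustment across the 15116 genes kept. DESeq2 1.42.0, limma 3.58.1, mgcv 1.9.3 (offsets for length and GC content) and Python 3.11.15 served the alternatives and descriptions. TMM factors were 0.941 and 0.996 (anti-GAA ASO) and 1.00 and 1.07 (control ASO). The SE is the log2 fold change divided by the root of F, and differences within replicates are of log2 CPM with a prior count of 2. The fit was tested on simulated data.

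Of 63677 identifiers, 52181 matched GENCODE 44 on GRCh38, and no position was carried over from hg19. GAA runs were taken from the longest transcript of each gene, in RNA sense. Values per library are given for members with a run of at least 12 nt, for the 8 members with the smallest p in each direction, and for CEP152, CEP290 and CEP95, which the study chose for RT-qPCR. AKAP9, CEP164 and CEP295 were added after their values had been seen. Of the other lists, the 4 genes with the smallest p in each direction are named. The members and lists were chosen with earlier results of these data known. Of the 107 further centrosome and cilium genes, TUBGCP5, IFT56 and IFT70A were not matched by symbol.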

Additional observations from a re-analysis of the deposited data

How the results depend on the processing

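The number of members below 0 (25 to 32) and the member median (−0.39 to −0.19) kept their direction under all 12 alternatives, and no alternative gave a member an adjusted p under 0.05. Depth limits members with few counts, such as CEP295 and CEP112, and 2 libraries per ASO leave the spread of a single gene poorly known. Causes of the changes below were not tested, except that fewer or more genes and libraries enter some fits. Of 396 values of named genes, 382 kept their direction and side of the threshold.

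Same-numbered libraries deviated together (correlation 0.564 across genes), but the labels do not say what the numbers mark and there are only 2 of them. With the replicate block, edgeR called 207 genes lower and 51 higher after adjustment (184 and 98 with length and GC offsets as well), and 1466 and 1037 at an unadjusted p (1169 and 1499). The block gave 12 members an unadjusted p under 0.05, all lower, and 7 with the offsets. Of the other genes named, USO1 and GOLGB1 passed adjustment with the block (edgeR adjusted p = 0.00547 and 0.0482).

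For all genes, calls at an adjusted p were 5 lower with DESeq2, 111 lower and 5 higher without a filter, and 0 to 16 lower and 0 to 3 higher when a library was left out. At an unadjusted p, lower genes numbered 317 with DESeq2, 1014 without a filter and 291 to 623 with a library left out, and higher genes 100, 306 and 158 to 321, and 72 with total counts. The median of all genes was −0.081 with total counts, −0.028 without a filter, 0.058 with length and GC offsets, 0.059 with these and the replicate block, and −0.027 to 0.026 with a library left out.

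For members, 6 had an unadjusted p under 0.05 with total counts and 0 to 4 with a library left out. With total counts, 692 of the 15116 tested genes were lower and 72 higher by the same rule, and the 6 members were all lower. The counts of all tested genes with a library left out are given above. Members with non-overlapping groups, not computed with a library left out, were 11 lower with the offsets, with or without the block (14.4% of all genes), and 0 higher with total counts (9.39% of all genes), 3 without a filter (11.7%) and 3 with a minimum of 1 CPM (15%). The correlation with length was −0.13 with offsets and −0.30 to −0.083 with a library left out, and that with GAA codons −0.51 to −0.48. The median of other centrosome and cilium genes was −0.034 with DESeq2 and with its size factors, −0.13 with total counts, −0.052 without a filter and with 1 CPM, −0.049 with the block, 0.015 with offsets, 0.019 with both, and −0.094 to 0.0066 with a library left out. For coiled-coil proteins away from the centrosome it was −0.41 to 0.0075.

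With total counts CEP250 (−0.013), CDK5RAP2 (−0.031), CEP131 (−0.061) and CEP41 (−0.058) turned negative. With a library left out CEP57 went from −0.032 to 0.35, CEP131 from −0.21 to 0.34, GCC1 from −0.027 to 0.51 and BICD2 from −0.030 to 0.43.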
